A study of Mus musculus with 6 samples.

Results

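Neutrophil granule and maturation genes were followed as a set of 10, chosen by symbol in a table of 54532 genes, and all 10 were found once each. They are Elane, Mpo, Prtn3 and Ctsg of the azurophil granules, Ngp, Camp, Ltf and Mmp8 of the specific granules, and Mmp9 and Retnlg, which mark the gelatinase granules and late maturation. RNA purified through its poly-A tail was sequenced from distal colon of mice, in 3 libraries labelled Itgbl1 -/- (KO 1 to KO 3) and 3 labelled WT (WT 1 to WT 3), all of them given the same batch date. Every animal had drunk 3% DSS, dextran sulfate sodium, for 7 days, which injures the colonic epithelium and draws neutrophils into the tissue, and no group without DSS was analysed here. The sources used here do not give strain, age, sex, how the allele was made, or whether each library came from its own animal, and the tests therefore weigh differences only against the spread among these 6 libraries, which may be technical.

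Neutrophils build their granules in sequence as they mature in the bone marrow. Azurophil proteins are made first, by promyelocytes, then the specific granule proteins by myelocytes and metamyelocytes, and gelatinase granule proteins last, by nearly mature cells. Transcription of the azurophil genes stops before the cells leave the marrow, so that blood and tissue neutrophils carry those enzymes as stored protein with little of their mRNA.

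Gene counts totalled 13326970 to 17465473 in the KO libraries and 16800399 to 18321389 in the WT libraries. Itgbl1 itself had 12, 4 and 10 reads in KO 1, 2 and 3, against 19, 6 and 5 reads in WT 1, 2 and 3, with no difference beyond the spread (edgeR log2 ratio -0.19 ± 0.77 (SE), adjusted p = 0.90). The counts thus do not show a loss in the libraries labelled knockout, and KO here means only that label. KO 3 stood apart, with 12.8% of its counts from mitochondrial genes against 3.53 to 4.88% in the other 5 libraries. The 10 markers of colonic epithelium, such as Epcam, Cdh1 and Muc2, summed to 1164, 9603 and 78.6 CPM (counts scaled by sequencing depth) in KO 1, 2 and 3, against 17891 to 23018 CPM in WT libraries. In bulk tissue, fewer cells of a type and less RNA per cell cannot be told apart.

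Promoter sequence was matched by symbol for 9 of the 10 genes in a RefSeq table for GRCm38.p6, as the 250 bases before the start annotated by RefSeq. The stretches of 5 genes are shown because their RNA followed different courses below: Ngp, Mmp8 and Retnlg were high in KO libraries, Ltf was not, and Elane was almost without reads. Capitals mark 2 sets of letters, TTNNGNAA on either strand, a form of the C/EBP motif, and GAGGAAG on either strand, a form of the PU.1 motif. C/EBP factors and PU.1 are the main transcription factors of the granulocyte line.
Ngp, chr9:110419558-110419807, plus strand: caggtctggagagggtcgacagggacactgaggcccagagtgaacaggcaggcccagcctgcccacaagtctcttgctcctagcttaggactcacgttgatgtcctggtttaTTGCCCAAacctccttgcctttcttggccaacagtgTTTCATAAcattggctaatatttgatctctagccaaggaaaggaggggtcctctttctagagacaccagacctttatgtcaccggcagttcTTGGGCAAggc
Mmp8, chr9:7558179-7558428, plus strand: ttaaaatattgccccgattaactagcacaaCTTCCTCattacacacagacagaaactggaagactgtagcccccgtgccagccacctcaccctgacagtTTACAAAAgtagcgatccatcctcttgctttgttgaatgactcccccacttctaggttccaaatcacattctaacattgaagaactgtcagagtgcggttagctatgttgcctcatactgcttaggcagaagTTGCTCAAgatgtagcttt
Retnlg, chr16:48872358-48872607, plus strand: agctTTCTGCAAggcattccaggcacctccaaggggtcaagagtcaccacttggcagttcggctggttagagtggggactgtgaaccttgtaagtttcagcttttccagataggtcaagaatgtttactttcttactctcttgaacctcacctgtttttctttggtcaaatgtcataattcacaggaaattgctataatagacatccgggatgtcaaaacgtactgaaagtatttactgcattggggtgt
Ltf, chr9:111019042-111019291, plus strand: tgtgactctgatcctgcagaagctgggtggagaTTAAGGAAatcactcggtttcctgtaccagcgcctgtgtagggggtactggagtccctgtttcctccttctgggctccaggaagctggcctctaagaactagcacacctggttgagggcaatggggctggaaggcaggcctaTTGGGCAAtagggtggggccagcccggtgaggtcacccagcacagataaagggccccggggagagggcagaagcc
Elane, chr10:79886062-79886311, plus strand: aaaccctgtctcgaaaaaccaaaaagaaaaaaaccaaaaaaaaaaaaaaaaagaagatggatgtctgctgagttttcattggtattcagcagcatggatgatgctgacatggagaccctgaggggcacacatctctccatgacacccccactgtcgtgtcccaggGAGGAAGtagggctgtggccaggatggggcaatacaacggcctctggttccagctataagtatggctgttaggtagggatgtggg

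The C/EBP letters stood in 4 of the 9 windows, where 36.8% of all 32851 promoter windows of this length hold them. These were the windows of Ngp, Ltf, Mmp8 and Retnlg, and 0 of the 4 azurophil windows held the letters. The nearest copy began 11 bases before the RefSeq start in Ngp and 19 bases before it in Mmp8, and Ngp and Ltf hold the same 8 letters, TTGGGCAA. RefSeq starts differ from those of the gene models used for the counts, given below. The windows of Ngp, Ltf, Elane, Mpo and Camp run partly into these models, and that of Prtn3 lies wholly inside its model. The nearest copy in Ngp thus lies inside its gene model. GAGGAAG stood in all 4 azurophil windows and in that of Mmp8, where 10.6% of all windows hold it. Neither set of letters was found in the window of Camp. These matches describe the letters only, and no marked stretch overlaps another in the printed windows.

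The azurophil genes were at or near 0 reads in both groups of colon, with Prtn3 as the exception. Elane, the neutrophil elastase gene (ENSMUSG00000020125, chromosome 10, 79886247 to 79888215, GRCm38 as are all gene coordinates here), had 2, 0 and 5 reads in KO 1, 2 and 3 and 0 reads in each WT library. Over the groups this is 7 reads against 0, a ratio of 2.57 when the WT group is set at a floor of 3 reads. That ratio takes the 7 reads of KO as exact and is not a lower limit. Mpo, the myeloperoxidase gene (ENSMUSG00000009350, chromosome 11, 87793581 to 87804413), had 3, 9 and 0 reads in KO libraries, against 2, 0 and 0 reads in WT libraries. Its 12 against 2 reads give a ratio of 6.60 with a 95% interval of 1.47 to 60.7. Ctsg, the cathepsin G gene (ENSMUSG00000040314, chromosome 14, 56099881 to 56102574), had 5, 0 and 9 reads, against 0, 0 and 1 reads, a ratio of 15.4 with an interval of 2.34 to 651. Both intervals are exact, from the group totals of reads, and cover counting error only, not the spread between libraries. A library in each group held 0 reads of each of these genes, so the groups overlapped. None of the 3 reached the filter on low counts of the edgeR test. DESeq2, run without that filter, gave unadjusted p-values of 0.287 for Elane, 0.366 for Mpo and 0.136 for Ctsg and no adjusted p for any of them.

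Prtn3 (ENSMUSG00000057729, chromosome 10, 79874476 to 79883174), which encodes proteinase 3 and lies 3072 bases upstream of Elane, had 40, 31 and 48 reads in KO 1, 2 and 3, against 32, 11 and 33 reads in WT 1, 2 and 3. These are 1.98, 1.77 and 3.73 CPM, against 1.90, 0.696 and 1.95 CPM. The groups overlapped, and the log2 ratio of KO over WT was 0.71 ± 0.59 (SE, edgeR quasi-likelihood test, adjusted p = 0.486). Its gene model shares 159 bases with Plppr3 on the other strand. Plppr3 had 156, 88 and 71 reads in KO libraries and 164, 183 and 158 reads in WT libraries, and without a stated strand setting the reads of the shared stretch could belong to either gene.

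**Figure D1:**
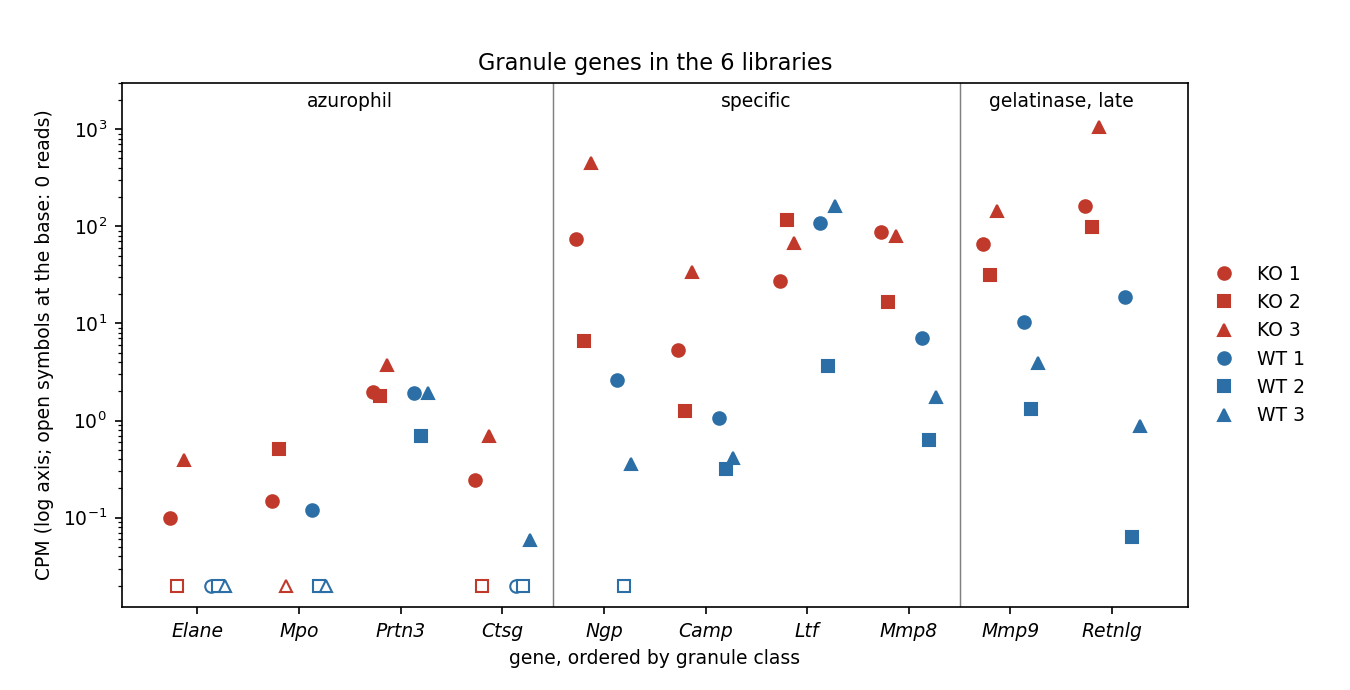
CPM of the 10 granule genes on a log axis, 1 symbol per library, KO libraries (red) left of WT libraries (blue), with open symbols at the base for 0 reads. Elane, Mpo and Ctsg stay under 1 CPM in all 6 libraries, while Ngp, Camp, Mmp8, Mmp9 and Retnlg are higher in every KO library than in every WT library.

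Ngp, Camp and Mmp8 of the specific granules were higher in all 3 KO libraries than in any WT library, and Ltf was not. Ngp, a cystatin-like granule protein of mouse neutrophils (ENSMUSG00000032484, chromosome 9, 110419747 to 110423012), had 1490, 114 and 5723 reads in KO 1, 2 and 3, against 44, 0 and 6 reads in WT 1, 2 and 3. These are 73.6, 6.52 and 445 CPM, against 2.62, 0 and 0.354 CPM. KO 3 held 68.2 times the Ngp level of KO 2, while KO 2 was still 2.49 times the highest WT library. The log2 ratio was 7.45 ± 1.99 (SE), with a 95% interval of 2.74 to 12.2 and an adjusted p of 0.111 by edgeR.

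Camp, the cathelicidin antimicrobial peptide gene (ENSMUSG00000038357, chromosome 9, 109847379 to 109849617), lies 570.1 kb from Ngp. It was at 5.29, 1.26 and 33.8 CPM in KO 1, 2 and 3, against 1.07, 0.316 and 0.413 CPM in WT 1, 2 and 3. The gap between the groups was narrow, since KO 2 had 22 reads and WT 1 had 18. Its log2 ratio was 4.46 ± 1.27 (SE, edgeR adjusted p = 0.12).

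Mmp8, the neutrophil collagenase gene (ENSMUSG00000005800, chromosome 9, 7558456 to 7568485), was at 87.3, 16.5 and 80.0 CPM in KO 1, 2 and 3, against 7.01, 0.633 and 1.77 CPM in WT 1, 2 and 3. KO 1 and KO 3 were alike for this gene, unlike for Ngp and Camp, where KO 3 was 6.04 and 6.39 times KO 1. The log2 ratio was 4.28 ± 1.02 (SE, edgeR adjusted p = 0.101).

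Ltf, which encodes the iron-binding protein lactoferrin and is also expressed by glandular epithelia (ENSMUSG00000032496, chromosome 9, 111019271 to 111042767), was at 27.6, 115 and 67.8 CPM in KO 1, 2 and 3, against 109, 3.67 and 161 CPM in WT 1, 2 and 3. The groups overlapped widely, with WT 3 the highest and WT 2 the lowest of the 6 libraries. The log2 ratio was -0.38 ± 1.09 (SE, edgeR adjusted p = 0.857), with a 95% interval of -2.97 to 2.21. That interval overlapped those of Camp (1.45 to 7.47) and Mmp8 (1.87 to 6.70) but not that of Ngp, and no test between genes was run. The sign of the Ltf ratio turned without KO 1 (0.016) and without WT 3 (0.30). Of the 3 KO libraries, KO 2 held the most Ltf and also the highest sum of epithelial markers, but among WT libraries WT 2 held the least Ltf and the highest sum of these markers. The part of epithelial cells in the Ltf level was not tested.

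Mmp9 and Retnlg, the late genes of the set, were likewise higher in every KO library than in every WT library. Mmp9, which encodes gelatinase B and is also made by macrophages and stromal cells (ENSMUSG00000017737, chromosome 2, 164940780 to 164955850), was at 66.5, 31.5 and 143 CPM in KO 1, 2 and 3, against 10.3, 1.33 and 3.95 CPM in WT 1, 2 and 3. Its log2 ratio was 3.94 ± 0.88 (SE, edgeR adjusted p = 0.0983), the smallest p among the 7 fitted genes. Retnlg, which encodes a secreted resistin-like protein of mouse neutrophils (ENSMUSG00000022651, chromosome 16, 48872621 to 48874496), was at 160, 98.8 and 1062 CPM, against 18.5, 0.0633 and 0.885 CPM. WT 2 held 1 read of Retnlg and KO 3 held 13671. Its log2 ratio was 6.08 ± 1.97 (SE, edgeR adjusted p = 0.14), and KO 2, the lowest KO library, was 5.33 times WT 1, the highest WT library.

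**Figure D2:**
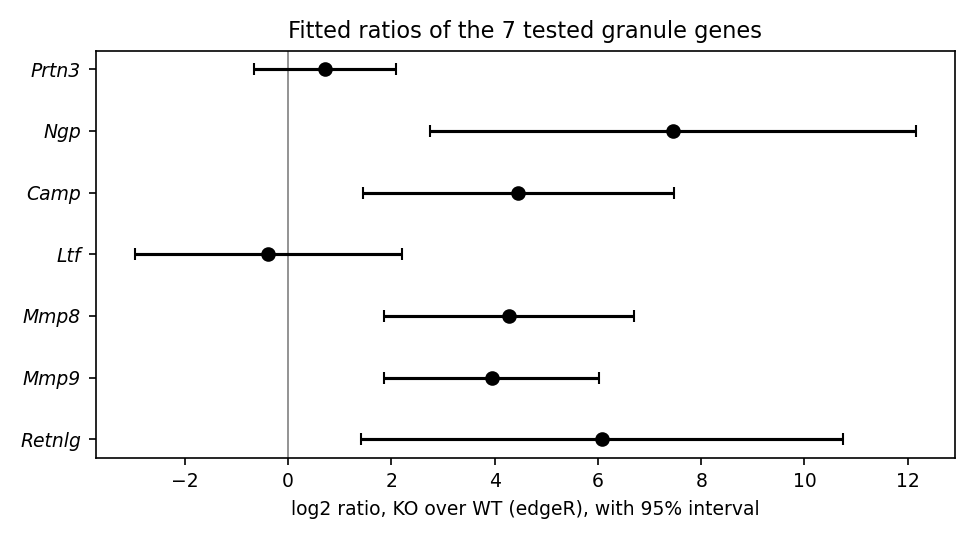
Fitted log2 ratio of KO over WT for the 7 granule genes that passed the filter on low counts, with 95% intervals that are not adjusted for the number of genes. The intervals of Ngp, Camp, Mmp8, Mmp9 and Retnlg lie above 0 and those of Prtn3 and Ltf include it.

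By edgeR's quasi-likelihood test with adjustment over all 16861 genes tested, 0 of the 7 fitted granule genes passed 0.05, and 0 genes of the whole table did (0%). At an unadjusted p under 0.05 there were 5 granule genes, Ngp, Camp, Mmp8, Mmp9 and Retnlg, all higher in KO, where 24.1% of all genes tested were below that p, 11.8% higher and 12.3% lower. The same 5 did not overlap between the groups, where 32.3% of all genes did not, 15.0% higher in KO and 17.3% lower. DESeq2 called those 5 genes higher (adjusted p from 3.01e-05 for Mmp9 to 0.0163 for Retnlg), where it called 10.5% of genes, 4.02% higher and 6.45% lower. Limma-voom called 0 of them, and 0% of all genes, with 3 of them at an unadjusted p under 0.05, where 24.4% of all genes were. With quality weights it called 4, all but Camp, where 8.28% of all genes were called, 2.23% higher, and 28.3% had an unadjusted p under 0.05. The fitted genes had a median log2 ratio of 4.28, against 0.061 over all genes tested. That median and these counts are a description only: 4 of the 7 had at least 10 reads in every WT library, and the others passed the filter on the strength of the KO libraries.

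The libraries kept much the same order from gene to gene. Among the 7 fitted genes, KO 3 was the highest KO library in 5 (Mmp8 had KO 1 and Ltf KO 2 on top) and KO 2 the lowest in 6, all but Ltf. WT 2 was the lowest WT library in all 7, and WT 1 the highest in 5, all but Prtn3 and Ltf, which had WT 3 on top. The spread within a group was wide: Retnlg in WT 1 was 293 times that in WT 2. Without KO 3 the log2 ratios were 5.27 for Ngp, 2.39 for Camp, 3.99 for Mmp8, 3.19 for Mmp9 and 4.28 for Retnlg, and 0 of these passed (adjusted p 0.166 to 0.246 by edgeR). Without KO 2, the library nearest to WT, Ngp, Camp, Mmp8 and Mmp9 passed the threshold (adjusted p 0.0319 to 0.0327 by edgeR) and Retnlg did not (0.0806), where 10.4% of all genes tested were called and 2.64% called higher. At an unadjusted p under 0.05 that setting had 31.3% of all genes.

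The rank of the genes within a library was compared on CPM per kb of gene model. Retnlg was the highest of the 10 in each KO library, at 270, 167 and 1792 CPM per kb in KO 1, 2 and 3, while Ltf was the highest in each WT library, at 31.7, 1.06 and 46.6 CPM per kb in WT 1, 2 and 3. Ngp came after Retnlg in KO 1 (60.2 CPM per kb) and KO 3 (364), but was fifth-ranked in KO 2 (5.34), below Ltf, Mmp9 and Mmp8. In WT 1, Ltf and Retnlg (31.3 CPM per kb) lay close together. The ratio of the 2 metalloproteinases moved little, with Mmp8 over Mmp9 at 1.92, 0.765 and 0.817 in KO libraries, against 0.990, 0.695 and 0.653 in WT libraries. Retnlg over Mmp9 was 14.4, 18.7 and 44.4 in KO libraries, against 10.7, 0.284 and 1.34 in WT libraries, without overlap. Ngp over Mmp9 was 3.21, 0.599 and 9.01, against 0.732, 0 and 0.259, and KO 2 lay below WT 1. These ratios, formed from the granule genes themselves, carry no test.

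**Figure D3:**
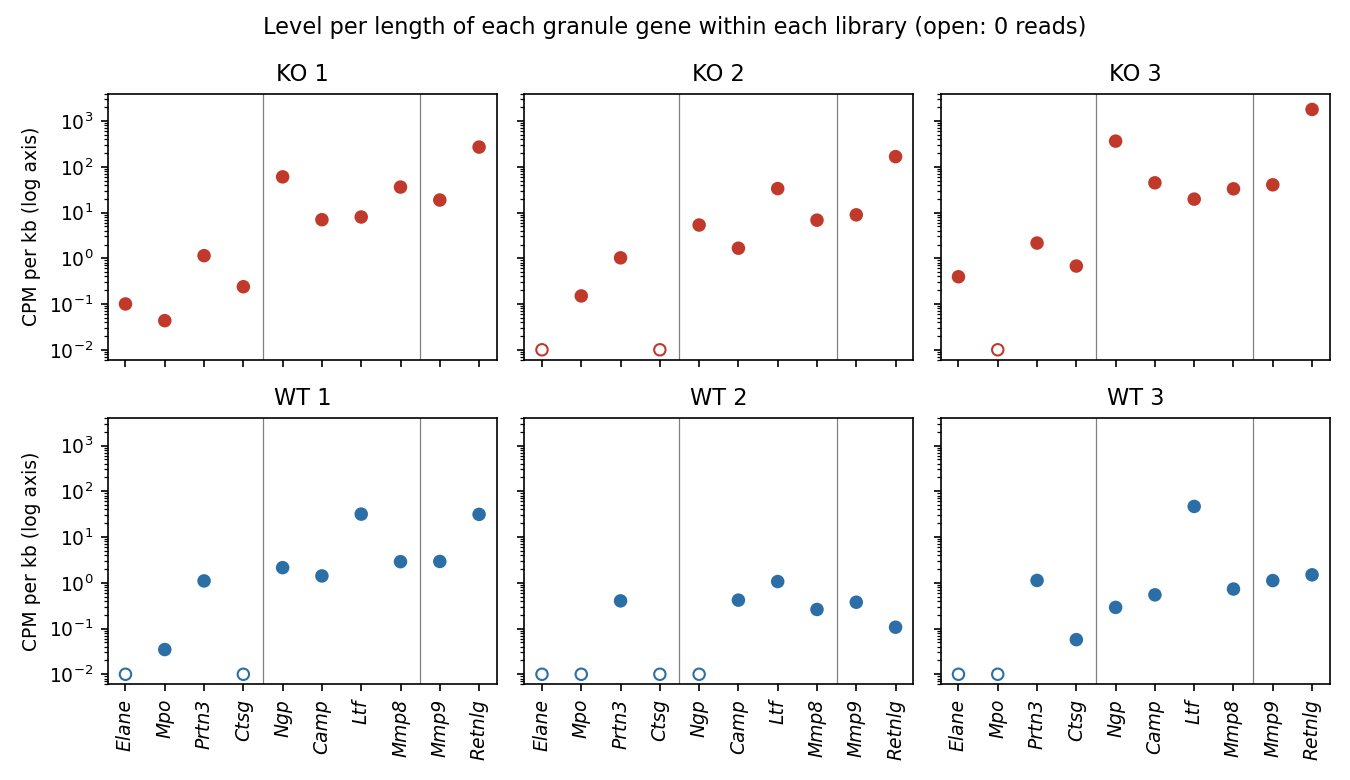
CPM per kb of gene model for the 10 granule genes on a log axis, 1 panel per library, KO libraries above WT libraries, with open symbols for 0 reads. Retnlg is the highest point in all 3 KO panels and Ltf in all 3 WT panels, and Elane, Mpo and Ctsg reach at most 0.677 CPM per kb (Ctsg in KO 3).

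The summed level of the azurophil genes was 2.47, 2.29 and 4.82 CPM in KO 1, 2 and 3, against 2.02, 0.696 and 2.01 CPM in WT 1, 2 and 3. Prtn3 alone made up 1.98, 1.77 and 3.73 CPM of this in KO libraries, against 1.90, 0.696 and 1.95 CPM in WT libraries. Specific granule genes without Ltf, a sum chosen after its values were seen, came to 166, 24.3 and 559 CPM, against 10.7, 0.949 and 2.54 CPM. Mmp9 and Retnlg summed to 226, 130 and 1205 CPM, against 28.9, 1.39 and 4.84 CPM. As shares of the summed CPM of all 10 genes, gelatinase and late genes took 55.7 ± 9.05% in KO and 14.2 ± 9.91% in WT (SD, n = 3 each), and specific granule genes 43.7 ± 8.76% in KO and 81.5 ± 13.7% in WT. That contrast rested on Ltf: without it, specific granule genes took 29.7 ± 13.4% in KO and 28.0 ± 2.89% in WT.

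Other genes of early granulocytes differed among themselves in level and direction. Ms4a3, a marker of granulocyte and monocyte progenitors, had 2 reads in KO 3 and 0 elsewhere, and Fcnb, the ficolin B gene of early neutrophils, had 2 reads in KO 1 and 0 elsewhere. Cebpe, the factor that drives specific granule genes, had 5, 0 and 20 reads in KO 1, 2 and 3, against 1, 0 and 2 reads in WT 1, 2 and 3. Lcn2, a specific granule gene that injured epithelium also makes, was at 587, 298 and 1913 CPM, against 109, 3.92 and 20.7 CPM (log2 ratio 4.39 ± 1.33, edgeR adjusted p = 0.131). Chil3, a chitinase-like gene of neutrophils and macrophages, averaged 296 ± 165 CPM in KO, with KO 2 the lowest at 134 CPM, against a mean of 32.0 ± 41.6 CPM in WT (SD, n = 3 each), with WT 1 the highest at 79.8 CPM. Gfi1, a transcriptional repressor of granulocyte development that secretory epithelium also uses, was at 1.88, 3.66 and 1.55 CPM, against 6.89, 8.92 and 5.84 CPM, lower in KO without overlap. Of this list of 9 genes 6 were tested, and 0 passed the adjusted test by edgeR. At an unadjusted p under 0.05, 2 were higher and 1 lower, where 11.8% of all genes tested were higher and 12.3% lower. The log2 ratio was also negative for Serpinb1a (-1.72) and Cd177 (-0.62), which were picked out for that.

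Late neutrophil genes outside the set mostly had positive ratios too, though their summed level overlapped between the groups, at 1944, 3181 and 7619 CPM in KO 1, 2 and 3, against 3766, 1085 and 1670 CPM in WT 1, 2 and 3. Of 29 tested, 27 had a positive log2 ratio, with a median of 2.12. Without overlap 15 were higher in KO and 1 lower, where 15.0% of all genes tested were higher and 17.3% lower. At an unadjusted p under 0.05 there were 12 higher and 1 lower, where 11.8% of all genes were higher and 12.3% lower. By edgeR 0 passed the adjusted test. S100a9, which pairs with S100a8 in the neutrophil protein calprotectin, was at 477, 521 and 3116 CPM in KO 1, 2 and 3, against 160, 1.77 and 12.1 CPM in WT 1, 2 and 3 (log2 ratio 4.56 ± 1.71, edgeR adjusted p = 0.171). Csf3r, the receptor for the granulocyte growth factor, was at 46.8, 34.7 and 50.6 CPM, against 54.1, 6.20 and 14.4 CPM, so WT 1 lay above every KO library. Stfa1, Stfa2 and BC100530, stefin protease inhibitor genes of myeloid cells, are near-identical copies whose reads could be split between them. Stfa2 had 66, 16 and 91 reads in KO libraries, against 1, 0 and 0 reads in WT libraries, and BC100530 had 29, 15 and 36 reads, against 0 in each WT library. Their fitted ratios depend on the prior count and are not given. Asprv1, a protease gene, was at 28.9, 12.6 and 62.5 CPM, against 5.65, 3.73 and 1.89 CPM (log2 ratio 3.20 ± 0.68, edgeR adjusted p = 0.094). The negative ones, picked out for that, were Ly6g and Slfn4, each at -1.55. Slfn4 was at 108, 393 and 205 CPM in KO libraries, against 958, 544 and 563 CPM in WT libraries. Ly6g and Slfn4 together made up most of each WT sum given above, so the overlap of the sums largely reflects them. Ly6g, the surface marker used to identify mouse neutrophils, was at 207, 832 and 10.7 CPM in KO libraries, against 1704, 472 and 898 CPM in WT libraries, and KO 3 held its lowest value and the highest of Ngp, Camp, Mmp9 and Retnlg. WT 2 held 472 CPM of Ly6g with 0 CPM of Ngp and 0.633 CPM of S100a8. Among KO libraries Ly6g and the sum of epithelial markers were both highest in KO 2 and lowest in KO 3. Among WT libraries WT 2 held the least Ly6g and the highest such sum. Which cells carried the Ly6g and Slfn4 RNA was not tested.

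Growth factor and regulator genes were mixed in direction. Csf3, which encodes the granulocyte growth factor G-CSF, was at 107, 21.5 and 1420 CPM in KO 1, 2 and 3, against 19.9, 0.127 and 5.84 CPM in WT 1, 2 and 3 (log2 ratio 5.90 ± 2.08, edgeR adjusted p = 0.159), and KO 3 was highest here as for Ngp. Cebpb, a factor of stress granulopoiesis that many cells use, was at 606, 483 and 1175 CPM, against 326, 83.5 and 186 CPM. Cebpa, the factor of early granulocyte commitment, was at 33.0, 47.5 and 31.1 CPM, against 68.2, 88.6 and 75.7 CPM, lower in KO without overlap, as was Klf4, which monocytes and surface epithelium share (log2 ratio -2.44 ± 0.61). Of 10 tested in this list, 4 were higher and 4 lower at an unadjusted p under 0.05, and 0 passed the adjusted test by edgeR. Among 11 serpins and other protease inhibitors, 6 were higher and 0 lower by the same unadjusted measure, where 11.8% of all genes were higher and 12.3% lower. Without overlap 6 were higher and 1 lower, Wfdc2 (log2 ratio -3.16), while Slpi overlapped (-0.076). Over all genes tested, 15.0% were higher and 17.3% lower without overlap. The higher ones included Timp1, an inhibitor of Mmp9 and other metalloproteinases, at 95.3, 83.1 and 473 CPM, against 40.5, 4.30 and 15.4 CPM. Another was Serpina3n, which inhibits cathepsin G and other serine proteases, at 2804, 1043 and 1172 CPM, against 453, 61.9 and 360 CPM.

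Markers of other cells that could carry these transcripts were measured in the same libraries. The 15 monocyte and macrophage markers summed to 1207 to 1688 CPM in KO and 749.9 to 1658 CPM in WT, with 6 positive and 9 negative log2 ratios and a median of -0.29. Csf1r, Adgre1 and Cd68, which define the list, overlapped between the groups. Without overlap 3 were higher in KO, Arg1, Cd14 and Marco, and 1 lower, Cx3cr1. Over all genes tested, 15.0% were higher and 17.3% lower without overlap. Arg1 was at 29.3, 32.5 and 52.6 CPM in KO libraries, against 4.75, 0.253 and 2.06 CPM in WT libraries. Cd14 was at 335, 234 and 709 CPM, against 219, 83.6 and 112 CPM. The 12 mast cell markers summed to 83.8 to 360 CPM in KO and 57.1 to 93.9 CPM in WT, most of it Kit and Hdc, which other cells share. Their defining proteases were low and overlapped, with Cpa3 at 1.93, 1.20 and 0.389 CPM in KO libraries, against 1.31, 0.633 and 0.885 CPM in WT libraries. KO 3, the library with the most Ctsg reads, held the lowest Mcpt4 value (0.0777 CPM, 1 read). It also held the highest values of Hdc (228 CPM) and Gata2 (36.5 CPM) of the same list. The part of mast cells in the Ctsg level was not tested. The 9 eosinophil markers summed to 4.12 to 41.0 CPM in KO and 3.54 to 75.9 CPM in WT, and Epx, the eosinophil peroxidase gene, had 0 reads in all 6 libraries.

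Platelet markers were also higher in KO libraries, while erythroid markers overlapped in part. The 7 platelet markers summed to 80.6 to 198 CPM in KO and 17.2 to 30.6 CPM in WT, and 4 of 4 tested were higher in KO without overlap, led by Pf4 (log2 ratio 2.64 ± 0.42, edgeR adjusted p = 0.094). The 7 erythroid markers summed to 164, 589.5 and 2654 CPM in KO 1, 2 and 3, against 163, 51.3 and 89.0 CPM in WT 1, 2 and 3, so KO 1 and WT 1 were nearly equal while their Ngp levels were 73.6 and 2.62 CPM. Of 6 erythroid markers tested, 3 were higher in KO without overlap. By edgeR 0 markers of either list passed the adjusted test, with 5 erythroid and 4 platelet markers higher at an unadjusted p under 0.05. Over all genes tested, 15.0% were higher in KO without overlap and 11.8% were higher at that unadjusted p. Cd34 and Flt3, markers of marrow progenitors, overlapped between the groups. The part of blood in the granule gene levels was not tested.

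**Figure D4:**
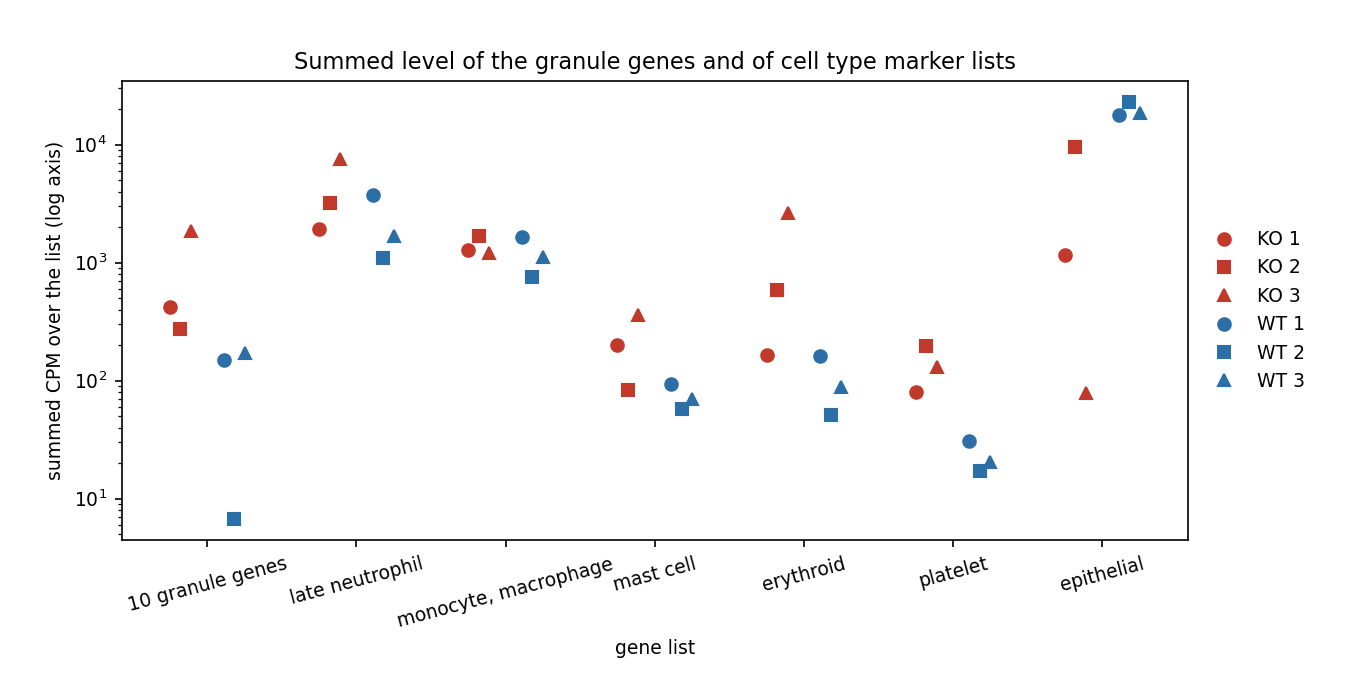
Summed CPM of the 10 granule genes and of 6 other gene lists on a log axis, 1 symbol per library, KO (red) left of WT (blue). Granule and platelet sums are higher in every KO library than in every WT library and epithelial sums are lower, erythroid sums of KO 1 and WT 1 nearly coincide, and late neutrophil, mast cell and monocyte and macrophage sums overlap. Most of the late neutrophil sum in WT libraries is Ly6g and Slfn4, which had negative ratios.

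Outside the set, the protein-coding genes whose profile over the 6 libraries lay closest to the median profile of the 7 fitted granule genes included Ifitm6, Chil3, Trem1 and Timp1. Among 13999 candidates the mean absolute difference of these 4 from that profile was 0.339 to 0.396 on the log2 CPM scale. Of the fitted granule genes only Mmp9 (0.098) and Mmp8 (0.291) lay closer to it. Camp (0.766), Ngp (1.55), Prtn3 (1.65), Retnlg (1.84) and Ltf (1.91) lay farther, so the profile stands mainly for Mmp9 and Mmp8. Ifitm6 was at 39.9, 22.8 and 183 CPM in KO 1, 2 and 3, against 14.1, 1.27 and 3.30 CPM in WT 1, 2 and 3. Trem1, a receptor that amplifies inflammation in neutrophils and monocytes, was at 36.1, 23.2 and 68.8 CPM, against 11.9, 0.570 and 1.89 CPM.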

How the data were processed

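Poly-A RNA of distal colon was sequenced in 6 libraries. Per the labels' protocols, the authors trimmed adaptors and dropped poor reads, and the deposited table gives whole-number counts per gene and library. The submitters' processing notes name, without roles, featureCounts 1.5.0-p3, HISAT2 2.0.5, StringTie 1.3.3b and DESeq2, with the builds GRCm38 and mm10. The sources used here give no annotation release, strand setting or treatment of multi-mapping reads. Gene lengths in bases are those of the deposited table.

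The main test used edgeR 4.0.16 (R 4.3.3) with filterByExpr (minimum count 10, minimum total 15), TMM scaling, robust quasi-likelihood F test of KO against WT without covariates, and Benjamini-Hochberg adjustment over 16861 genes. CPM uses TMM-scaled library sizes, and log2 CPM a prior count of 2. A count of 0 allows up to 3 reads, 0.148 to 0.232 CPM in these libraries. Alternatives were other scalings and filters, DESeq2 1.42.0, limma-voom (3.58.1) with and without quality weights, a replicate block, and leaving out libraries. Libraries of a group differed far beyond sampling noise (chi-square per degree of freedom 50.7 to 253).

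Genes were named by a written rule: all members, Itgbl1, the first 3 and the 4 smallest p of each list, and the 5 nearest profiles. Some genes that the rule names are not reported here. Members, lists and motifs were chosen with earlier results of these data known.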

Additional observations from a re-analysis of the deposited data

How the results depend on the processing

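The 5 granule genes higher in KO kept a positive log2 ratio under each of the 14 or 15 alternatives that gave them a value, from 4.69 to 9.83 for Ngp, 2.09 to 5.14 for Camp, 3.51 to 5.62 for Mmp8, 2.74 to 4.89 for Mmp9 and 3.70 to 9.79 for Retnlg. Their adjusted p ranged from 3.01e-05 to 0.44. Leaving out 1 library put Ltf between -0.97 and 0.30. Ltf turned positive with limma-voom (0.56), without KO 1 (0.016) and without WT 3 (0.30), and Prtn3 turned negative without KO 3 and WT 2 together (-0.065); the cause was not tested. Granule genes called numbered 0 in the main test, 5 with DESeq2, 4 with quality-weighted limma-voom and 0 to 4 when 1 library was left out (4 without KO 2, 0 without each of the others). At an unadjusted p under 0.05 there were 5, against 2 with at least 10 reads in every library, where 4 of the 7 genes were tested, 3 with limma-voom, and 4 to 5 when 1 library was left out. Genes not overlapping stayed at 5 whichever library was left out. That count could hardly fall, since separated groups stay separated with fewer libraries unless the scaling changes. The share over all genes was not calculated for these settings. The median log2 ratio of the fitted genes was 4.28, against 2.32 with the strict filter, 2.74 without KO 3 and WT 2 together and 3.19 to 5.14 when 1 library was left out.

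Genes called over the whole table were 0, against 192 with no filter (29 higher), 2029 with DESeq2 (779 higher), 1396 with quality-weighted limma-voom (376 higher), 3 with the replicate block and 0 to 1813 when 1 library was left out (0 to 460 higher), all 1813 being without KO 2. Upper-quartile scaling moved the median log2 ratio of all genes from 0.061 to 0.21. Same-numbered libraries did not deviate together (r = -0.20, 0.087 and -0.075 across genes), so the replicate block pairs numbers only; under it 0 granule genes passed. Shares of the summed level per kb were 23.0% in KO and 70.3% in WT for specific granule genes, and 76.7% in KO and 23.3% in WT for gelatinase and late genes. Without Ltf, chosen after seeing the data, shares in CPM were 29.7% and 69.5% in KO, and 28.0% and 55.6% in WT, with 16.4% azurophil in WT. Elane, Mpo and Ctsg had 7, 12 and 14 reads in all of KO, which limits their precision.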
